A study of Mus musculus with 2 samples.

Results

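Collagen genes were followed across 5 populations of mouse cells taken along the return of primed pluripotent cells to a naive state. The genes were chosen by symbol alone, Col followed by digits, the letter a and digits, which selected 44 of the 33963 genes in the count table. They were grouped by the kind of structure that their protein chains build. There were 11 chains of fibrillar collagens, 6 of type IV, 6 of type VI, 9 of FACITs (collagens that attach to fibrils), 3 of the network types VIII and X, 1 of the anchoring type VII, 2 multiplexins, 4 transmembrane collagens and 2 of types XXVI and XXVIII. All 44 genes had at least 1 read.

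Collagens are secreted proteins made of 3 chains wound into a triple helix. Fibrillar types I, II, III and V assemble into the cables of connective tissue and cartilage, and fibroblasts are their best known source. Type IV forms the sheet of the basement membrane on which epithelia and the epiblast rest, and type VI forms beaded filaments around cells.

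The populations were labelled with 5 oligonucleotide tags and read in a single pooled cDNA library on BD Rhapsody, with the TAS-Seq amplification. Naive cells were mouse embryonic stem cells (mESCs) with a Rex1-GFP reporter, and primed cells were mouse epiblast stem cells (mEpiSCs) of the line Oct4GIP, which carries an eGFP and puromycin resistance transgene under Oct4 control and is grown in FGF2 and Activin A. Oct4GIP cells were plated for a day on a feeder layer of mouse embryonic fibroblasts (MEFs) and then given the AMPK activator AICAR and the cytokine LIF, for 8 days in the d8 cells and 16 days in the d16 cells. d16+10p cells were d16 cells kept for 10 more passages in 2iL, a medium with LIF and kinase inhibitors. The labels give the strain as 129/Ola. Naive and primed cells came from different lines, 1 line each, so that the line and the state cannot be told apart, and the Oct4 transgene is shared by all populations except the naive cells. The d16 cells were split at 1000 CPM (counts per 1000000 reads) of Dppa5a, a gene of naive pluripotent cells, in the single cell. The highest cell below the limit had 992 and the lowest cell above it had 1012.

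The table held 801 cells with the naive tag and 1826 with the primed tag, 9627 d8 cells, 4315 d16 cells and 1151 cells of d16+10p, and 3037 of the d16 cells lay below the Dppa5a limit and 1278 at or above it. The summed reads ranged from 17245249 in naive cells to 179944974 in d8 cells. The median was between 8691 reads per cell in d16 cells below the limit and 21551 in d16+10p cells. Cell numbers per tag did not follow the number collected, which was 500 naive, 500 primed and 1000 d16+10p cells, and 9000 cells on each of the days d8 and d16. Whether some cells carry the tag of another population was not tested, and the names naive and primed here mean the tag. Only 474 of the 1826 cells with the primed tag and 561 of the 801 cells with the naive tag lay in clusters with high Pou5f1 (Oct4), the gene that marks pluripotent cells, against 1208 of the 1278 d16 cells above the limit. With 1 sample for each population there is no replicate, and neither a test nor a p-value is given. Intervals are 95% intervals that cover the error of counting only. Since reads and not molecules were counted, they are narrower than the true error.

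Upstream sequence is shown for 3 of the genes, Col1a2 and Col3a1 because they turned out to behave differently in the fibroblast-like clusters, and Col9a2 because its pattern over the populations was opposite to that of most collagens. Each line gives the 250 bases before the RefSeq start of the gene on the plus strand of GRCm38.p6, 5′ to 3′. Col1a2 starts at base 4505618 of chromosome 6, and the window is chr6:4505368-4505617. Col3a1 starts at base 45311538 of chromosome 1, and the window is chr1:45311288-45311537. Col9a2 starts at base 121039566 of chromosome 4, and the window is chr4:121039316-121039565. Capitals mark matches on either strand to CCAAT, to TATAAA or to GGGCGG, the core letters bound by the factor NF-Y, by the TATA-binding protein and by Sp1.
Col1a2: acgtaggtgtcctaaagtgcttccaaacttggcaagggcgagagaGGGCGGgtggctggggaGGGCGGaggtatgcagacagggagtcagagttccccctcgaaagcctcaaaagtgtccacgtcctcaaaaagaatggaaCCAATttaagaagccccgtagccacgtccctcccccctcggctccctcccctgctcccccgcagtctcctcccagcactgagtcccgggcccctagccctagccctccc
Col3a1: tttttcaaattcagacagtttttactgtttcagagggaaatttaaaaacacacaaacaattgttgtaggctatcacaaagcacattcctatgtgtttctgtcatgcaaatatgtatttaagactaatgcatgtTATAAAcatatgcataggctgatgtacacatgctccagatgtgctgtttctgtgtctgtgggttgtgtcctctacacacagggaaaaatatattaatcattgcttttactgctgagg
Col9a2: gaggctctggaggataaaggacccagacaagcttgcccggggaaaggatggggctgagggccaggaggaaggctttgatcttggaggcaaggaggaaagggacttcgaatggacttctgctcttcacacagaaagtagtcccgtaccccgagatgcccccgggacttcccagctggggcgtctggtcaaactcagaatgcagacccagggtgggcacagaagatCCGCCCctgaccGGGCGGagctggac
The Col1a2 window held 1 CCAAT and 2 GGGCGG, that of Col3a1 held 1 TATAAA and neither of the others, and that of Col9a2 held 2 GGGCGG. Over 32851 windows of the same length in the genome, 33.8% held CCAAT, 12.4% TATAAA and 32.7% GGGCGG. Windows were found for 35 of the 44 collagen genes (38 windows), and 13 of these windows held CCAAT, 5 held TATAAA and 22, of 21 genes, held GGGCGG. A match is a run of letters and was not tested as a binding site. Several chains of the same collagen are neighbours in the genome. Col4a1 (chr8:11198423-11312889) and Col4a2 (chr8:11312805-11449287) run in opposite directions, with spans that overlap at their starts. The start sites that the upstream windows use are 21 bases apart for this pair. Col4a6 and Col4a5 also run in opposite directions on chromosome X, with such start sites 1343 bases apart. Col3a1 (chr1:45311538-45349706) lies 24624 bases from Col5a2 (chr1:45374331-45503282).

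Fibrillar collagen reads were most frequent in d16 cells below the Dppa5a limit and least frequent in the cells at or above it. Levels are given as counts per 1000000 reads (CPM), summed over the cells of a population. The fibrillar class had 644 CPM (632 to 656) in naive cells, 1636 CPM (1621 to 1651) in primed cells, 1024 CPM (1020 to 1029) in d8 cells, 3387 CPM (3368 to 3406) in d16 cells below the limit, 488 CPM (478 to 497) in d16 cells at or above it and 512 CPM (503 to 521) in d16+10p cells. The last 2 populations and the naive cells were thus the lowest, primed and d8 cells lay between, and no pair of neighbouring values had overlapping counting intervals. Ratios are on the log2 scale after 1 CPM was added to both levels. The ratio was 1.34 (1.32 to 1.38) for primed against naive, −0.68 (−0.69 to −0.66) for d8 against primed, 1.72 (1.71 to 1.74) for d16 below the limit against d8, −2.79 (−2.82 to −2.77) for d16 at or above the limit against d16 below it, and −0.33 (−0.37 to −0.29) for d16+10p against naive. Without the cells of cluster 6, a fibroblast-like cluster, d8 cells were the highest with 988 CPM beside 854 CPM in d16 cells below the limit, d16+10p cells were the lowest with 446 CPM, and the ratio of d8 against primed was 0.62.

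Type IV, the basement membrane collagen, followed a flatter course between primed and d8 cells when all cells were taken. It had 132, 285 and 289 CPM in naive, primed and d8 cells, 609 CPM in d16 cells below the limit, 121 CPM in those at or above it and 116 CPM in d16+10p cells. The type IV ratio of d8 against primed was 0.02 (−0.013 to 0.055), an interval that includes 0. The same ratio was −0.68 for the fibrillar class and −0.48 (−0.54 to −0.44) for type VI. Over the alternative settings the type IV ratio ranged from −0.696 to 1.59. Without cluster 6, type IV had 149 CPM in primed and 284 CPM in d8 cells. Type VI had 60.7, 128, 90.9, 279, 51.3 and 47.8 CPM in the same order of populations. Type VII and the multiplexins had their highest levels in d8 cells, with 65.9 and 141 CPM. The multiplexins were close to this in primed cells (131 CPM) and in d16 cells below the limit (134 CPM). Their ratio of d8 against primed was 0.11 and ranged from −0.114 to 1.06 over the alternative settings. The FACITs and the network types had their highest levels in d16 cells below the limit, with 165 and 140 CPM, but their ratios against d8 cells were only 0.115 and 0.131 and turned to −0.192 and −1.08 without cluster 6. With the Dppa5a limit at 3000 CPM they were −0.0391 and −0.0302. The transmembrane collagens had 54.6 CPM in d16 cells below the limit beside 9.03 CPM in d8 cells.

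**Figure D1:**
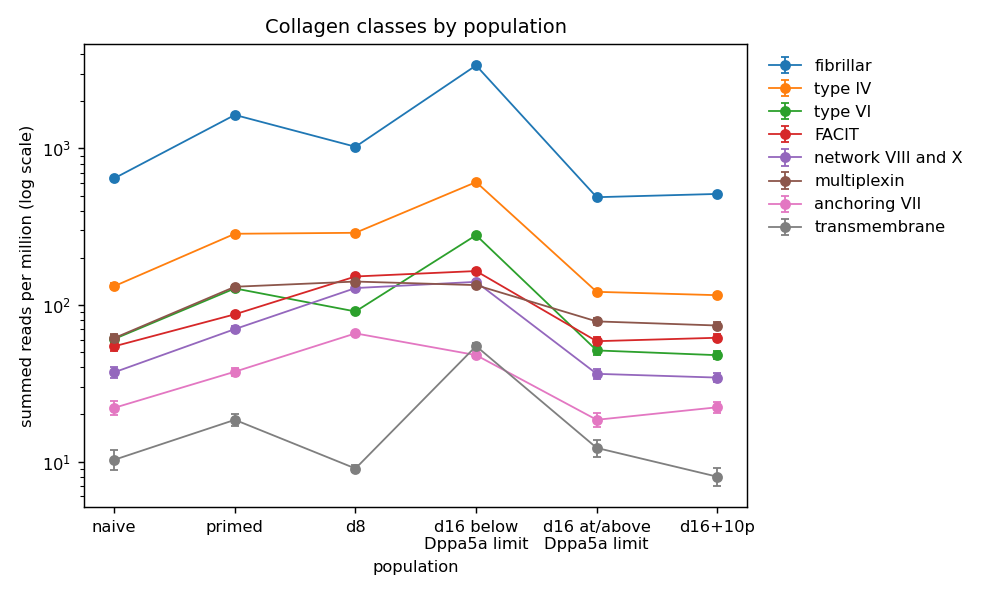
Summed CPM of 8 collagen classes (y axis, log scale) in the 5 populations, with d16 split at the Dppa5a limit (x axis); bars are exact Poisson intervals of the counts, mostly smaller than the points, and lines only join the points of a class. Fibrillar collagens peak at 3387 CPM and type IV at 609 CPM in d16 cells below the limit, while type VII and, by a small margin, the multiplexins are highest in d8 cells.

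Members were counted as higher or lower when they differed by at least 2-fold, provided that the gene reached 10 CPM in one of the populations compared and 100 reads in their sum. In primed against naive cells, 21 collagen genes passed the level filter, 10 were higher and 0 lower, where 3.55% of all 10549 genes that passed were higher and 4.69% lower. The median log2 ratio of the 21 was 0.99, beside 0.08 over all genes. In Pou5f1-high clusters, and likewise without cluster 6, the number higher was 1. In d8 against primed cells, 21 passed, 1 was higher (Col12a1) and 1 lower (Col3a1), with 3.53% of all genes higher and 3.28% lower. For d16 cells below the limit against d8 cells, 22 passed, 12 were higher and 0 lower, with 8.96% of all genes higher and 2.84% lower, and the median of the 22 was 1.04 beside −0.02 over all genes. Without cluster 6, 3 were higher and 2 lower. For d16 cells at or above the limit against those below it, 23 passed, 1 was higher (Col9a2) and 21 were lower, with 11.2% of all genes higher and 16.6% lower. The median of the 23 was −1.97 beside −0.03. For d16+10p against naive cells, 19 passed and 0 were higher or lower, with 0.862% of all genes higher and 0.614% lower. Each count of members lay on genes that had at least 10 CPM in the higher population, so low members could not enter it.

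Type I collagen, the main protein of skin, bone and tendon, is built from the chains of Col1a1 and Col1a2. Col1a1 (chr11:94936224-94953042) had 133 CPM in naive, 348 in primed and 249 in d8 cells, 768 CPM in d16 cells below the limit, 101 CPM in those at or above it and 105 CPM in d16+10p cells. Col1a2 (chr6:4505618-4541543) had 188, 493, 353, 1057, 158 and 155 CPM in the same order. Both chains had the same order of populations at the top, and the number of Col1a1 reads per Col1a2 read stayed between 0.640 and 0.726 over the 6 populations.

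Col3a1, which makes type III collagen of soft and growing tissue, departed from type I at d8. Col3a1 had 199 CPM in naive, 523 in primed and only 141 in d8 cells, then 1197 CPM in d16 cells below the limit, 126 CPM in those at or above it and 146 CPM in d16+10p cells. Its ratio was −1.88 (−1.92 to −1.86) for d8 against primed, where that of Col1a1 was −0.48 (−0.52 to −0.45), and 3.08 (3.06 to 3.11) for d16 below the limit against d8, where that of Col1a1 was 1.62 (1.60 to 1.65). Col3a1 reads per Col1a1 read were 1.5 in naive and in primed cells, 0.566 (0.557 to 0.575) in d8 cells and 1.56 in d16 cells below the limit. Without the fibroblast-like cluster 6, Col3a1 had 126 CPM in primed and 126 CPM in d8 cells, and 168 CPM in d16 cells below the limit. Col1a1 then had 122, 241 and 170 CPM in the same populations.

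The chains of type V collagen, which sets the width of type I fibrils, moved less. Col5a1 had 22.8, 45, 51.3, 75.3, 22.3 and 23.4 CPM, and Col5a2 had 37.2, 81.5, 79.6, 162, 28.7 and 31.0 CPM. Both were highest in d16 cells below the limit. Col2a1 (chr15:97975602-98004724), the collagen of cartilage and of the notochord, had 39.1 CPM in naive, 102 in primed and 96.2 in d8 cells, 67.3 and 28.7 CPM in d16 cells below and above the limit and 30 CPM in d16+10p cells. It was the one member named here with its highest level in primed cells. Col27a1, a fibrillar chain of developing cartilage, ranged from 10.8 CPM in naive cells to 34.1 CPM in d16 cells below the limit.

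Col4a1 and Col4a2, which together make the common type IV molecule, had 72.4 and 42.3 CPM in naive cells, 168 and 94.6 CPM in primed cells, and 161 and 102 CPM in d8 cells. They reached 352 and 213 CPM in d16 cells below the limit, and had 65.2 and 39.8 CPM in those at or above it and 62.4 and 36.9 CPM in d16+10p cells. Col4a1 reads per Col4a2 read were 1.58 to 1.77 in the 6 populations. Because the spans of both genes overlap at their starts on opposite strands, and it is not stated whether the counting used strand, reads from the overlap could be given to either gene. Col4a5 ranged from 10.4 CPM in d16+10p cells to 33.2 CPM in d16 cells below the limit. Col4a3, the type IV chain of the kidney filter, stayed between 3.74 and 4.23 CPM in all 6 populations.

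The chains of type VI collagen had their highest level in d16 cells below the limit, at 143 CPM for Col6a1, 73.4 CPM for Col6a2 and 58.8 CPM for Col6a3. Their lowest levels were 26.0 CPM for Col6a1 and 7.36 CPM for Col6a3, both in d16+10p cells, and 11.1 CPM for Col6a2 in d16 cells at or above the limit. All 3 passed the 2-fold limit between d8 and d16 cells below the limit, with ratios of 1.57 to 1.62.

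Some members were high in d8 cells already. Col12a1, a FACIT that lies on the surface of type I fibrils, had 19.3, 32.7 and 86.4 CPM in naive, primed and d8 cells, and 61.2, 17.1 and 16.0 CPM in d16 cells below the limit, at or above it and in d16+10p cells. Its ratio of d8 against primed was 1.37 (1.31 to 1.5). Col16a1, another FACIT, had 19.6 CPM in primed, 35.5 in d8 and 30.8 in d16 cells below the limit. Col7a1, the anchoring fibril that fastens epithelia to the tissue beneath, had 37.5, 65.9 and 47.8 CPM in these populations. Col18a1, a multiplexin of basement membranes that yields endostatin, had 125, 139 and 126 CPM there and was the flattest of the abundant members, with 59.4 CPM in naive, 77.4 CPM in d16 cells at or above the limit and 72.2 CPM in d16+10p cells. Col8a1, a short network chain of vessels and the eye, had 68.6 CPM in primed, 127 in d8 and 135 CPM in d16 cells below the limit.

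Col23a1, a transmembrane collagen, and Col22a1, a FACIT known from tissue junctions such as muscle and tendon, were low in 5 of the populations and higher in d16 cells below the limit. Col23a1 had 7.07, 14.0, 6.68, 43.7, 7.65 and 5.26 CPM, and Col22a1 had 7.36, 12.8, 12.5, 41.2, 9.77 and 7.82 CPM in the usual order.

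Col9a2, a chain of type IX collagen of cartilage, went the other way. It had 9.16 CPM (7.79 to 10.7, 158 reads) in naive cells, 1.94 CPM in primed, 1.88 CPM in d8 and 2.05 CPM (1.61 to 2.59, 72 reads) in d16 cells below the limit, and 13.1 CPM (11.6 to 14.8, 273 reads) in d16 cells at or above it and 17.5 CPM (15.9 to 19.2, 459 reads) in d16+10p cells. It was named after its values were seen, since it did not reach the 50 CPM that the rule for named genes asks for. Within Pou5f1-high clusters the levels were 10.2 CPM in naive, 1.77 CPM in primed, 13.6 CPM in d16 cells at or above the limit and 18.9 CPM in d16+10p cells, so that primed cells stood below the other 3 there as well. In the d16 cells, Col9a2 had 1.79, 2.52 and 2.92 CPM in cells with Dppa5a below 100, from 100 to 300 and from 300 to 1000 CPM, and 10.4 and 14.6 CPM from 1000 to 3000 and above 3000 CPM. The other type IX chains did not share this course: Col9a1 had 2.15, 7.82, 4.08, 14.9, 2.84 and 3.05 CPM, and Col9a3 stayed between 2.78 and 6.36 CPM. After each cell was thinned to 5000 reads, 4.23% of naive and 0.772% of primed cells, 0.868% of d8 cells, 0.970% and 4.77% of d16 cells below and above the limit and 7.67% of d16+10p cells had a Col9a2 read, against 0.720% in the macrophage-like cluster.

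The remaining members that the naming rule left out were low. The rule left out 24 genes, Col9a2 among them. The highest population level of the others ranged from 0.2 CPM (7 reads) for Col28a1 to 16.8 CPM for Col11a1, the latter a chain of cartilage fibrils.

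To see which cells the reads came from, all 17720 cells were clustered with the collagen genes left out of the variable genes, so that collagen did not shape the clusters. This gave 18 clusters, 15 of them with at least 100 cells. Cluster 6, with 1076 cells, had the highest level of 24 of the 44 collagen genes among those 15, cluster 14 of 7, cluster 10 of 5, cluster 0 of 4, cluster 9 of 2 and clusters 5 and 7 of 1 each. Some of these genes were low, such as Col4a4 at 2.02 CPM and Col6a4 at 2.35 CPM in cluster 14. Of the 20 members named by the rule, 15 were highest in cluster 6, 2 each in clusters 0 and 14, and 1 in cluster 10. The rule takes a gene at 50 CPM in a single cluster, so a high cluster can bring its own genes into this count. Col4a5 and Col23a1, at 50.4 and 75.7 CPM in cluster 6, reached 50 CPM in no other cluster of at least 100 cells and in no population. The share of all genes that are highest in each cluster was not computed. Cluster 6 was fibroblast-like by its markers, with Dcn at 960 CPM, Postn at 450, Twist1 at 236 and Pdgfra at 166 CPM, and was led by Itih5, Apod and Ogn.

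Most fibrillar reads of primed cells and of d16 cells below the limit lay in cluster 6. The cluster held 4.0% of naive and 13.0% of primed cells, 0.654% of d8 cells, 23.5% of d16 cells below the limit, 0.391% of those at or above it and 2.17% of d16+10p cells. Of the fibrillar collagen reads it held 28.8% with the naive tag and 63.6% with the primed tag, 3.97% at d8, 79.7% and 4.88% in d16 below and above the limit and 13.4% in d16+10p cells. Over all cells, 35.6% of the fibrillar reads, 21.7% of the type IV reads and 33.6% of the type VI reads came from this cluster, which had 3.30% of all reads. In d8 cells the fibrillar reads came instead from cluster 0, with 39.9%, and from cluster 4, with 22%.

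**Figure D2:**
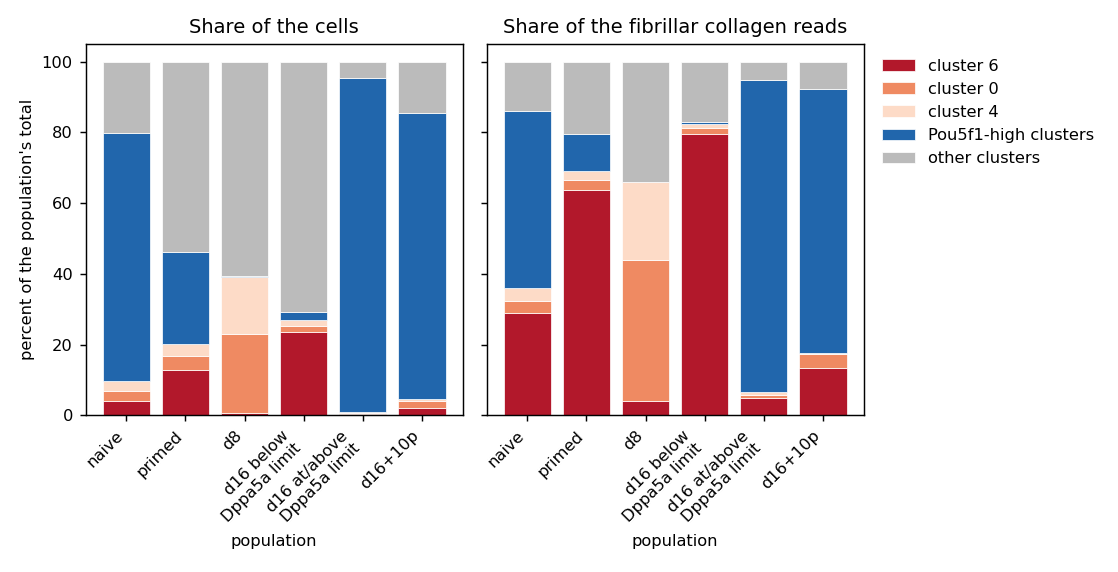
Stacked bars of each population's cells (left) and of its fibrillar collagen reads (right), as percent of the population's total, by cluster 6, cluster 0, cluster 4, the 4 Pou5f1-high clusters (5, 7, 11 and 12) and all others. Cluster 6 is 23.5% of the d16 cells below the Dppa5a limit and holds 79.7% of their fibrillar reads, while in d8 cells it holds 3.97% and clusters 0 and 4 hold 39.9% and 22%.

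Without the cells of cluster 6, a setting added after the data were seen, the fibrillar class was at 466 CPM in naive and at 642 CPM in primed cells, at 988 CPM in d8 cells, at 854 and 465 CPM in d16 cells below and above the limit, and at 446 CPM in d16+10p cells. The ratio of d16 cells below the limit against d8 then turned from 1.72 to −0.21, and that of d8 against primed from −0.68 to 0.62. Type IV had 105, 149, 284, 282, 119 and 105 CPM without cluster 6. Fibrillar collagen within cluster 6 itself was high under every tag, at 10727 CPM in its 32 naive-tagged cells, 14431 CPM in 237 primed, 8819 CPM in 63 d8, 13948 CPM in 719 d16 and 9586 CPM in 25 d16+10p cells. The feeder layer consisted of fibroblasts, and the study took the Oct4-negative cells of its primed sample to be MEF feeders. Whether the cells of cluster 6 are feeder cells, cells derived from the Oct4GIP line or a mixture was not tested. Cluster 3, another cluster mostly of d16 cells, held 105 primed-tagged and 22 naive-tagged cells beside 1664 with the d16 tag. Cluster 13, with 271 cells, held 70 primed-tagged and 19 naive-tagged cells beside 107 with the d16 tag. Why these tags occur in such clusters was not tested.

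Inside the Pou5f1-high clusters, fibrillar levels lay closer together. They were 398 CPM (388 to 409) in naive, 442 CPM (430 to 455) in primed, 456 CPM (447 to 466) in d16 cells at or above the limit and 433 CPM (424 to 441) in d16+10p cells. Outside these clusters, the cells with the same tags had 1670, 2386, 1019 and 1103 CPM. For type IV the levels inside were 89.6, 95.3, 116 and 102 CPM, and outside 308, 404, 216 and 215 CPM. Only 31 d8 cells and 65 d16 cells below the limit lay in these clusters, with 429 and 725 CPM of fibrillar collagen.

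Within the d16 population the fibrillar level changed with Dppa5a mainly at the limit. It was 3441 CPM in the 2038 cells with Dppa5a below 100 CPM, 3285 CPM in 731 cells from 100 to 300 and 3229 CPM in 268 cells from 300 to 1000, and then 671 CPM in 445 cells from 1000 to 3000 and 389 CPM in 833 cells above 3000 CPM. The cells of cluster 6 numbered 487, 169, 58, 5 and 0 in these ranges. Col4a1 had 358, 352, 296, 88.3 and 52.7 CPM in the same ranges.

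Cluster 0, the other fibroblast-like cluster, had 2160 of its 2335 cells from d8 and a different mixture of collagens. Its markers were Postn at 1338 CPM, Prrx1 at 651, Dcn at 595 and Thy1 at 474 CPM, and it had the highest level of Lox among clusters of at least 100 cells, the enzyme that cross-links collagen. Col1a1 had 471 CPM in cluster 0 and 3087 CPM in cluster 6, Col1a2 had 604 and 4043 CPM, and Col5a2 had 224 and 648 CPM. Col3a1 differed most of the abundant members, with 158 CPM (7598 reads) in cluster 0 and 5308 CPM (53848 reads) in cluster 6. There was 0.335 (0.327 to 0.344) of a Col3a1 read for each Col1a1 read in cluster 0 and 1.72 (1.70 to 1.74) in cluster 6. This quotient was 0.522 in cluster 4, 1.22 to 1.30 in the Pou5f1-high clusters and 0.923 in the macrophage-like cluster 8. The share of cells with a Col1a1 read in the Pou5f1-high clusters was at or below that of cluster 8, as given below. The part of free RNA in their quotient was not tested. The tags divided the clusters unevenly, but among the cells of cluster 0 Col3a1 was at 156 CPM with the d8 tag, 168 CPM with the primed tag and 192 CPM with the d16 tag, and in cluster 6 at 3375, 5627 and 5490 CPM.

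Other members differed less between the clusters or were more frequent in cluster 0. Col12a1 had 232 CPM in cluster 0 and 154 CPM in cluster 6, Col16a1 had 73.3 and 63.3 CPM, and Col8a1 had 271 and 422 CPM. Col5a3, the third chain of type V, and Col24a1, a rarer fibrillar chain, had 28.7 and 18.1 CPM in cluster 0 and 4.53 and 2.17 CPM in cluster 6. These last 2 were chosen after their values were seen. Of the 30 members that passed the level filter between the clusters, 2 were at least 2-fold higher in cluster 0 and 24 at least 2-fold higher in cluster 6, where 6.97% of all 10481 genes that passed were higher in cluster 0 and 12.0% lower. The median log2 ratio of cluster 0 over cluster 6 was −2.26 for the 30 members and −0.08 for all genes that passed. Type IV and type VI were also lower in cluster 0, with Col4a1 at 277 against 1174 CPM and Col6a1 at 99.7 against 537 CPM.

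**Figure D3:**
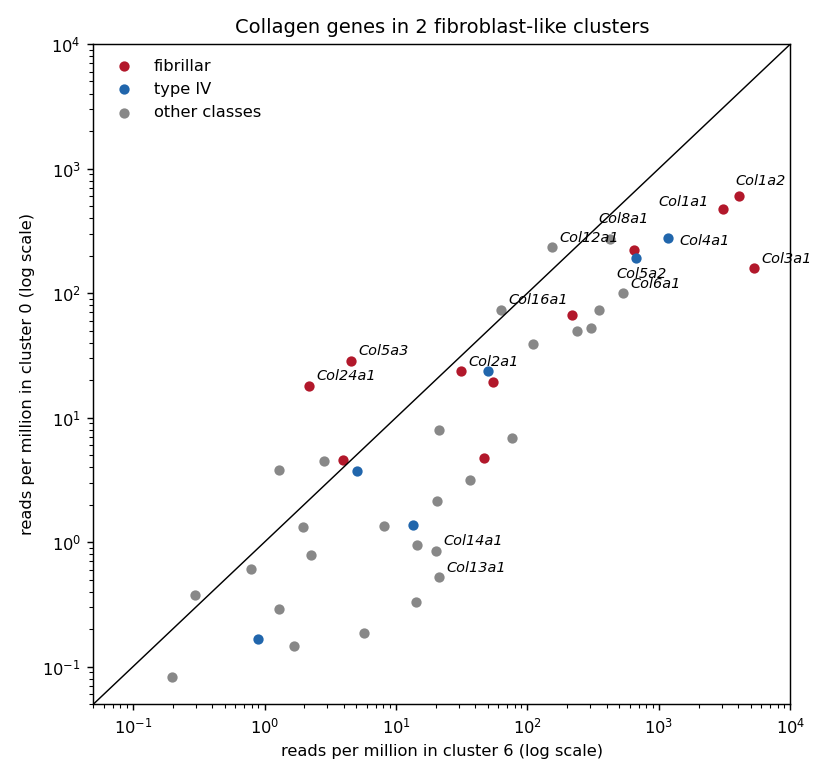
Level of each collagen gene in cluster 6 (x axis) and cluster 0 (y axis) in CPM, both on log scales, for genes with a read in both clusters; the line marks equal levels and colours the class. Most points lie below the line, Col3a1 farthest among the abundant genes with 158 and 5308 CPM, while Col12a1, Col16a1, Col5a3 and Col24a1 lie above it.

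Cluster 4, also mostly of d8 cells, had smooth muscle genes (Acta2 at 1439, Tagln at 772 and Cnn1 at 146 CPM), although Myh11, the defining myosin, was at 0.589 CPM. The smooth muscle genes Actg2 and Des were at 14.9 and 3.02 CPM. Epithelial keratins were high in the cluster as well, with Krt18 at 1439 and Krt8 at 1308 CPM. Its summed marker levels were 2901 CPM for the epithelial and 2376 CPM for the smooth muscle genes. It had 292 CPM of Col1a1, 521 of Col1a2, 170 of Col8a1, 201 of Col18a1 and 92.0 CPM of Col7a1. Cluster 1, epithelial-like with Krt18 at 3217 and Krt8 at 2931 CPM, had 190 CPM of Col18a1 and 97.3 CPM of Col7a1 but 106 CPM of Col1a1. Cluster 14, led by Krt15, had 327 CPM of Col18a1 and 107 CPM of Col7a1, close to the 352 and 111 CPM of cluster 6, and the highest levels of Col27a1 (79.0 CPM) and Col22a1 (55.8 CPM). In clusters 9 and 10, where Krt8 was at 994 and 891 CPM, Col18a1 had 101 and 69.1 CPM and Col7a1 52.7 and 35.2 CPM.

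Col2a1 was set apart from the other fibrillar chains. It had 1064 CPM (1044 to 1084) in cluster 10. The next levels among the 15 clusters were 99.1 CPM in cluster 2, led by Lefty1, and 84.3 CPM in the mesendoderm-like cluster 9, and cluster 6 had 31.3 CPM. Cluster 10 was led by T and Shh, which are genes of the notochord and of its source. Of the other notochord markers, Nog was at 123 CPM there, Foxa2 at 9.74, Foxj1 at 3.59 and Noto at 0.0946 CPM. Foxa2 was higher in cluster 9, with 60.2 CPM. Of the reads of the 32 collagen genes with at least 2 CPM over all cells, Col2a1 made up 50.1% in cluster 10 and 0.177% in cluster 6. Col11a1, the usual partner of Col2a1 in cartilage fibrils, had 49.2 CPM in cluster 10 and 46.6 CPM in cluster 6, and Col9a1 had 38.8 and 20.6 CPM.

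Cluster 3, led by Fabp7 and mostly of d16 cells, had 49.5 CPM of Col23a1 and 54.8 CPM of Col22a1. The median over the 15 clusters was at or below 20 CPM for each. Both were higher in another cluster, Col23a1 in cluster 6 with 75.7 CPM and Col22a1 in cluster 14 with 55.8 CPM. Cluster 9 had 196 CPM of Col4a1 and 85.4 CPM of Col4a2, a quotient of 2.3 (2.14 to 2.48). The quotient was 1.62 over all cells and 0.846 (0.662 to 1.08) in the neuron-like cluster 13. Across the 15 clusters the log2 levels of Col4a1 and Col4a2 had a Pearson correlation of 0.97, which was 0.93 without cluster 6. The same values were 0.99 and 0.98 for Col6a1 and Col6a2, 0.99 and 0.97 for Col1a1 and Col1a2, and 0.86 and 0.65 for Col3a1 and Col5a2. They were 0.79 and 0.70 for Col4a5 and Col4a6, 0.52 and 0.47 for Col4a3 and Col4a4, and 0.40 and −0.13 for Col6a1 and Col18a1. Col4a4 had 100 reads over all cells and 0 to 2.02 CPM in the 15 clusters, so its correlation rests on few counts. The correlations are descriptions over clusters of 1 library.

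**Figure D4:**
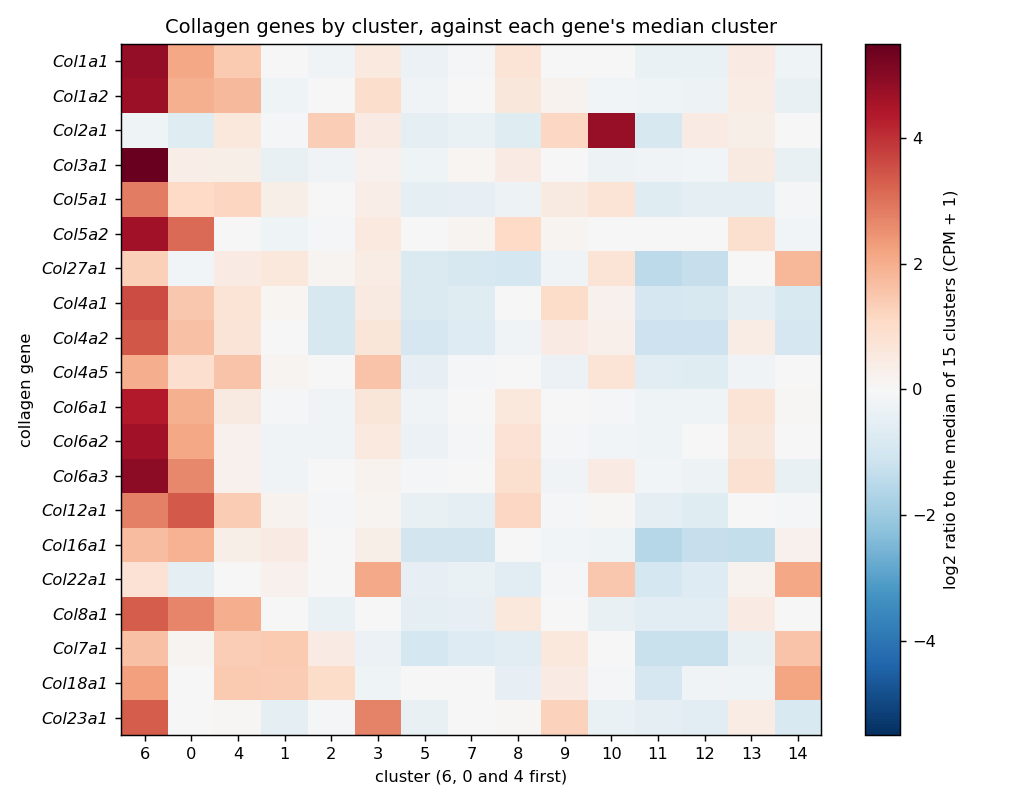
Heat map of the 20 collagen genes named by the rule (rows) in the 15 clusters with at least 100 cells (columns, clusters 6, 0 and 4 first); colour is the log2 ratio of each level to the gene's median cluster after 1 CPM was added. Cluster 6 is the darkest column for 15 of the 20 genes, Col12a1 and Col16a1 are darkest in cluster 0, Col2a1 in cluster 10, and Col27a1 and Col22a1 in cluster 14. A gene could be named through its highest cluster alone.

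Reads of the abundant collagens were found in every cluster, so a share of cells with a read was set against a cell type that should not make them. After thinning to 5000 reads, 35.5% (32.3 to 38.9) of the cells of cluster 8 had a Col1a1 read and 34.6% (31.3 to 37.9) a Col3a1 read. Cluster 8 was macrophage-like, with Lyz2 at 26361 CPM and a median of 17378 reads per cell before thinning. In cluster 6, with a median of 7732 reads, the shares were 95.1% (93.4 to 96.5) and 98.0% (96.8 to 98.8). For Col3a1 the other clusters of at least 100 cells lay between 30.6% and 38.5%, cluster 0 included, a range that holds the share of the macrophage-like cluster. For Col1a1, cluster 0 (63.9%) and cluster 4 (53.6%) stood above that level and the other clusters lay between 28.6% and 36.4%. For Col4a1, where the macrophage-like cluster had 24.8%, clusters 0 (51.1%), 9 (39.4%), 4 (38.7%), 3 (36.0%), 10 (35.2%) and 1 (32.0%) stood above it. The 4 Pou5f1-high clusters had 28.6% to 33.0% for Col1a1 and 19.3% to 23.6% for Col4a1, at or below the macrophage-like cluster. The macrophage-like cluster had a summed fibroblast marker level of 712 CPM, beside 187 to 310 CPM in the remaining clusters with 100 cells or more, 0 and 6 left out, and the part of free RNA or of mixed cells in these shares was not tested.

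**Figure D5:**
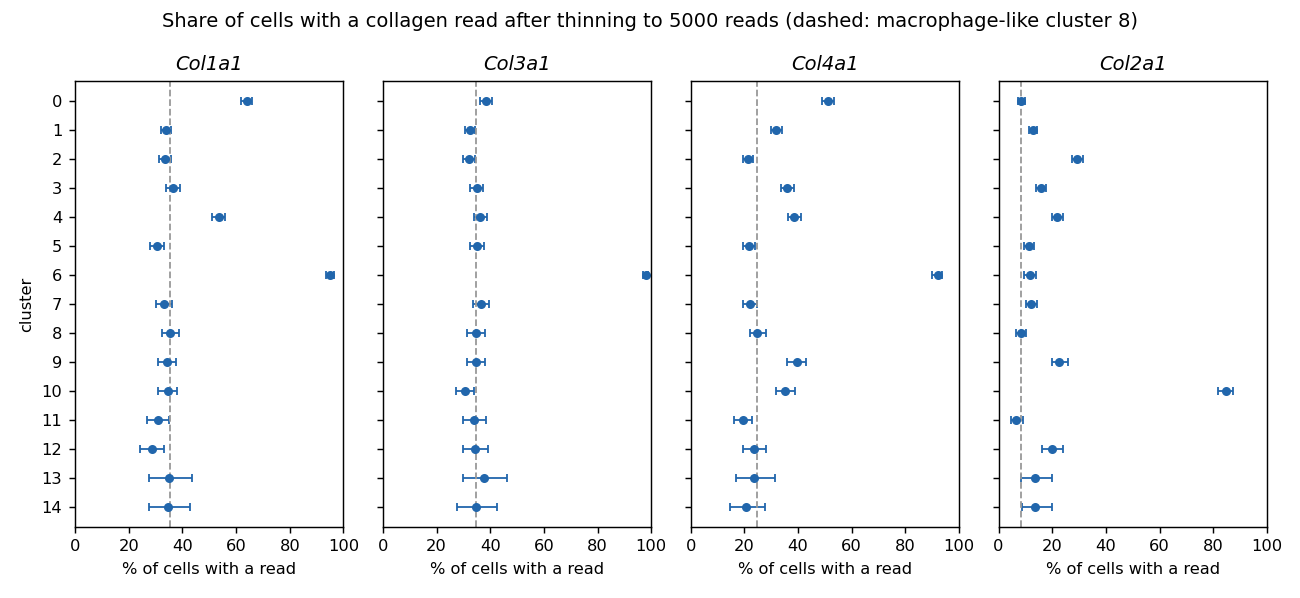
Percent of cells with at least 1 read of Col1a1, Col3a1, Col4a1 or Col2a1 (x axes) in each cluster of at least 100 cells (y axis) after thinning each cell to 5000 reads; bars are exact binomial intervals and the dashed line is the macrophage-like cluster 8. Col3a1 is far from the line in cluster 6 (98.0%), Col1a1 also in clusters 0 and 4, and Col2a1 reaches 84.6% in cluster 10.

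By population, 34.9% (31.5 to 38.5) of naive and 41.4% (38.9 to 43.8) of primed cells, 43.9% (42.8 to 44.9) of d8 cells, 51.7% (49.7 to 53.7) and 32.2% (29.6 to 34.9) of d16 cells below and above the limit and 33.1% (30.3 to 36.0) of d16+10p cells had a Col1a1 read after thinning. Before thinning the shares were 71.5%, 63.5%, 69.0%, 64.1%, 62.0% and 68.9%, in another order. The thinned shares of naive cells, of d16 cells at or above the limit and of d16+10p cells were at the level of the macrophage-like cluster. The thinned Col4a1 shares were 24.4%, 35.2%, 35.6%, 48.8%, 23.0% and 21.4%.

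Enzymes that modify, fold and cross-link collagen were listed apart, 34 genes in all. The counts of this list and of the lists after it stand beside the shares of all genes in the same comparisons. These were 3.55% higher and 4.69% lower for primed against naive, 3.53% and 3.28% for d8 against primed, 8.96% and 2.84% for d16 below the limit against d8, 11.2% and 16.6% for d16 at or above the limit against below it, and 0.862% and 0.614% for d16+10p against naive, so that 1 gene of a short list is close to the background. Of 27 that passed the filter between primed and naive cells, 3 were higher, among them Plod2, a lysyl hydroxylase, with 305 against 103 CPM, and 1 was lower, the procollagen enhancer Pcolce2 with 6.06 against 23.6 CPM. From primed to d8 cells 3 of 26 were higher and 0 lower, with the cross-linking enzymes Lox at 98.8 and 407 CPM and Loxl1 at 12.7 and 36.7 CPM and the procollagen protease Bmp1 at 55.8 and 124 CPM. From d8 to d16 cells below the limit 5 of 28 were higher, among them the prolyl hydroxylases P4ha1 (32.7 to 129 CPM) and P3h2 (8.14 to 29.5 CPM) and the glycosyltransferase Colgalt2 (4.17 to 20.1 CPM), and 1 was lower, Lox, which returned to 104 CPM. In d16 cells at or above the limit 19 of 29 were lower than below it and 1, Pcolce2, was higher with 14.8 against 4.39 CPM. In d16+10p against naive cells 0 of 23 were higher or lower. The median log2 ratios of the list were 0.47, 0.27, 0.43, −1.27 and −0.15 in these comparisons.

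Lox and the collagen chaperone Serpinh1 were spread differently over the clusters. Lox had 1344 CPM in cluster 0 and 112 CPM in cluster 6, whereas Serpinh1 had 513 and 1200 CPM. Loxl2, a related cross-linking enzyme, had 196 CPM in cluster 0, 493 in cluster 4 and 623 CPM in cluster 6. Among clusters of at least 100 cells P3h2 was highest in cluster 3, with 46.6 CPM beside 18.4 CPM in cluster 6. Colgalt2 was highest in cluster 10 with 33.8 CPM, beside 29.0 CPM in cluster 3 and 4.14 CPM in cluster 6. P3h2 and Colgalt2 were thus not highest where type I and type III reads were. Serpinh1, Loxl2, P4ha1 and Plod2 were highest in cluster 6 among these clusters, P4ha1 and Plod2 with 263 and 472 CPM.

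Among 10 collagen receptors, 5 or 6 passed in the first 4 comparisons. The uptake receptor Mrc2 (32.4 against 12.1 CPM) and the integrin chain Itga1 (11.7 against 5.22 CPM) were higher in primed than in naive cells, 2 of 5. Itga2 was higher in d8 than in primed cells (15.9 against 5.85 CPM), 1 of 6, and Itga1 in d16 cells below the limit than in d8 cells (37.6 against 5.65 CPM), 1 of 6. At or above the limit 5 of 6 were lower, with Ddr1, a receptor kinase for collagen, at 41.5 against 169 CPM and Ddr2 at 15.4 against 52.2 CPM. In d16+10p against naive cells 0 of 4 were higher or lower.

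Partners of type IV in the basement membrane were 16 laminin, nidogen and related genes. Of 12 that passed between primed and naive cells 2 were higher and 1 lower, of 11 between d8 and primed cells 0 and 1, and of 11 between d16 cells below the limit and d8 cells 4 and 0. Lama1, the laminin chain of the early embryo, had 10.0 CPM in primed, 4.33 CPM in d8 and 23.3 CPM in d16 cells below the limit. Nid2 had 51.8 and 132 CPM and Lamc1 61.4 and 143 CPM in d8 and in d16 cells below the limit. At or above the limit 5 of 11 were lower and 0 higher.

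The last list held 15 small leucine-rich proteoglycans and other fibril partners. Of 12 that passed between d8 and primed cells 6 were higher, with Thbs1 at 777 against 229 CPM, Bgn at 486 against 143 CPM and Thbs2 at 288 against 80.7 CPM, and 2 were lower, Ogn with 6.01 against 21.5 CPM and the microfibril gene Fbn2 with 34.6 against 80.0 CPM. Between d16 cells below the limit and d8 cells 4 of 13 were higher, among them Prelp (101 against 8.96 CPM), Ogn (53.6 against 6.01 CPM) and elastin, Eln (53.8 against 7.51 CPM), and 4 were lower, among them Thbs1, Bgn and Tnc. Thbs1 and Bgn had 2185 and 1603 CPM in cluster 0 beside 254 and 500 CPM in cluster 6, and Ogn and Fbn2 had 195 and 380 CPM in cluster 6 beside 8.57 and 17.3 CPM in cluster 0. In primed against naive cells 3 of 12 were higher and 0 lower. At or above the limit 12 of 13 were lower, and in d16+10p against naive cells 0 of 11 were higher or lower.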

How the data were processed

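The authors sequenced 1 pooled cDNA library of tagged cells (BD Rhapsody, TAS-Seq) and deposited a table of raw read counts per gene symbol and cell. Per the study's methods, adapters were trimmed with cutadapt 2.10, reads were mapped with Bowtie2 2.3.4.1 to Ensembl transcripts of GRCm38.p6, barcodes were cut at the knee of the read curve, cells were assigned by their highest tag, and those with the least clear tag were removed as doublets. A strand setting is not given in the sources used here. Reads, not molecules, were counted.

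Here a minimum of 500 genes and a maximum of 20% mitochondrial reads per cell removed 0 of 17720 cells. Reads were summed per population or cluster and scaled to CPM. Intervals are exact Poisson for a level, and exact binomial for a share and for a ratio of reads. Those of log2 ratios omit the added 1 CPM. Shares were computed after thinning to 5000 reads, leaving shallower cells out. Clustering used Seurat 5.3.0 (R 4.3.3) and the 2000 most variable genes other than collagen genes, with 56 components, 50 neighbours and resolution 0.8. Of the 2000 most variable genes before this step, 20 were collagen genes. Pou5f1-high clusters reached 25% of the highest cluster's Pou5f1 CPM and had a read in 75% of their cells. Doublets were scored with Scrublet (scanpy 1.11.5) as an alternative, and edgeR 4.0.16 gave TMM factors for another. Other values were computed in Python 3.11.15 with numpy 2.4.6, scipy 1.17.1 and pandas 2.3.3. Each population was 1 sample, so no p-value was computed.

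The collagen genes, the gene lists and the comparisons were chosen with earlier results of these data known. Collagen genes with at least 50 CPM in a population or in a cluster of at least 100 cells were named, which were 20. Promoter windows came from RefSeq. The alternatives were the pseudocount, the filters, the scaling, thinning, doublet removal, the Dppa5a limit, the clustering and the pluripotent cells alone. Leaving out cluster 6 was added after the data were seen. The basement membrane partners in d16+10p against naive cells are not reported here.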

Additional observations from a re-analysis of the deposited data

How the results depend on the processing

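No paired analysis was possible because each population is 1 sample, and no replicate could be left out. The log2 ratio of the fibrillar class is given first, then the collagen genes counted. For primed against naive it was 1.29 with more than 2000 and fewer than 8000 genes per cell, 1.48 as a mean over cells, 1.3 with TMM, 1.48 thinned, 1.43 without the highest Scrublet scores (888 cells, 42 of them in cluster 6), 0.15 in Pou5f1-high clusters and 0.46 without cluster 6. The 10 genes higher became 5 with 10 CPM added, 1 in Pou5f1-high clusters, 1 without cluster 6 and 0 at 4-fold, and 1 was lower in Pou5f1-high clusters and 1 with no level filter. For d8 against primed the ratio was −0.597, −1.37, −0.572, −1.22 and −0.691 in the same order of settings, and reversed to 1.21 with primed cells of Pou5f1-high clusters and 0.622 without cluster 6. Higher genes numbered 0 as a mean over cells, 0 thinned, 16, 7, 3 with no filter and 0 at 4-fold, and lower genes 8, 6, 0, 0, 2 and 0. For d16 below the limit against d8 it was 1.67, 2.03, 1.63, 2 and 1.84, then 1.75 without mitochondrial reads, 1.51 at a Dppa5a limit of 3000, and −0.21 without cluster 6, where type IV had −0.011 and type VI −0.302. Higher genes numbered 3 without cluster 6, 19 with no filter and 2 at 4-fold, and lower genes 2 without cluster 6 and 1 with no filter. For d16 at or above the limit against below it was −2.74 with 2000 to 8000 genes, −3.01 as a mean over cells, −2.96 thinned, −3.13 without high Scrublet scores, −2.07 and −2.91 at Dppa5a limits of 300 and 3000, and −0.876 without cluster 6. Higher genes numbered 0 with 10 CPM added, 0 thinned, 0 at a filter of 50 CPM and 2 with no filter, and lower genes 12 without cluster 6, 13 at 50 CPM and 11 at 4-fold. For d16+10p against naive it was −0.499 as a mean over cells, −0.483 thinned, −0.446 without high Scrublet scores, −0.0622 without cluster 6, and 0.12 in Pou5f1-high clusters. The share of cells with a Col1a1 read was 71.5%, 63.5%, 69%, 64.1%, 62% and 68.9% without thinning. With collagen genes kept in the clustering, the top cluster had 13272 CPM of fibrillar collagen. The causes were not tested.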

Other observations

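Clusters under 100 cells held some collagens that were low elsewhere. In cluster 15, with 77 cells of which 62 were d16 cells below the limit, Col2a1 had 661 CPM, Col9a1 351 CPM and Col11a1 195 CPM. In cluster 17, with 48 cells and led by Foxj1, a gene of ciliated cells, Col9a3 had 110 CPM, while it had at most 11.8 CPM in the clusters of at least 100 cells. Col6a5 had 3.90 CPM in d16 cells at or above the limit and 0.372 to 1.58 CPM in the other populations.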
